A study of Drosophila melanogaster with 3 samples.

Results

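The genes described here were the 8 Hox genes of Drosophila melanogaster and the genes of their 2 homeodomain cofactors, homothorax (hth) and extradenticle (exd), in a ChIP-seq study of the zinc finger protein CG4424. The members were chosen by name, 10 of 13945 protein-coding genes on the 6 chromosomes, and each was taken with 5 kb on each side (its window, dm6). Chromatin came from whole embryos of both sexes, aged 0 to 16 hours, of a transgenic line stably expressing CG4424 with GFP at its C terminus, and was precipitated with an antibody against GFP. There were 3 biological replicates of this 1 group, with 1 technical replicate each, and no contrasting genotype or treatment. Since whole embryos were used, a site bound in few cells and a site bound weakly in many cannot be told apart.

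Hox genes encode homeodomain transcription factors that give body segments their identity along the head-to-tail axis. In the fly they lie in a pair of clusters on chromosome arm 3R, the Antennapedia complex (lab, pb, Dfd, Scr and Antp, for the head and anterior thorax) and the bithorax complex (Ubx, abd-A and Abd-B, for the posterior thorax and abdomen), where long introns and intergenic stretches hold enhancers, boundaries and Polycomb response elements. Exd and Hth are TALE homeodomain proteins that bind DNA together with Hox proteins, and Hth is needed for Exd to enter the nucleus.

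The authors' optimal set holds 6420 regions, each with a signal value from their region caller and a summit, the base at which enrichment peaks. The optimal regions are the strongest of a pooled list of 29056 regions, of which 21288 overlap no optimal region. By its label the pooled list holds peaks and background, so its weaker regions and their summits can include background. The lists of replicates 1, 2 and 3 hold 22198, 30000 and 29796 regions, and for counts by replicate the 6420 strongest of each were used. The signal has no stated scale, so it was compared within a list, and ranks (1 being the strongest) were used between lists. Read counts were not used here, so depth is unknown. Intervals below are exact (Clopper-Pearson) at 95% and cover counting error only, and neighbouring summits are not independent.

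The 37 optimal summits in the 10 windows lay mostly inside introns and almost never at a start. Of the 10 members, 9 had at least 1 optimal summit in the window (90%, interval 55.5 to 99.7), where 56.5% of all protein-coding genes had one. Hox genes are long, and a longer window takes up more summits. All 7 members of at least 20 kb had a summit (interval 59.0 to 100), against 73.9% of protein-coding genes of that length. Of the 3 shorter members, 2 did. At starts, 1 of the 10 members (10%, interval 0.253 to 44.5) had an optimal summit within 500 bp, where 24.9% of protein-coding genes had one. That member was Dfd. Each of these intervals held the share of protein-coding genes set beside it.

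The sequences around the strongest summit of each member that had one, and of the next 3 summits by signal, show the DNA on which the described regions were centred. They are given 5′ to 3′ on the forward strand of the RefSeq assembly of dm6, with 50 bases on each side of the summit. An hth summit in a 3′ untranslated region, at 10582757, is described without its sequence and was passed over for these 3. Capitals mark matches on either strand to 10 hexamers that were more frequent within 50 bp of optimal summits outside the member windows than in windows of the same length 500 bp to the left.
hth at chr3R:10597731-10597831: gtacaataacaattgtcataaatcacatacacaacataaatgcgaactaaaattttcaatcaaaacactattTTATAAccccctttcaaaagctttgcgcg
lab at chr3R:6672423-6672523: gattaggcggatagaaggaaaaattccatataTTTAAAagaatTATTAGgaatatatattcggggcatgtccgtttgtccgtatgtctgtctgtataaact
pb at chr3R:6708998-6709098: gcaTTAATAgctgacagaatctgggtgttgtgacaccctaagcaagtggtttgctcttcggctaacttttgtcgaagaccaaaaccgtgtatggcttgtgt
Dfd at chr3R:6791422-6791522: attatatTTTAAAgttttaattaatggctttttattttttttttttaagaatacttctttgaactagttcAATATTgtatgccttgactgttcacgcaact
Scr at chr3R:6818711-6818811: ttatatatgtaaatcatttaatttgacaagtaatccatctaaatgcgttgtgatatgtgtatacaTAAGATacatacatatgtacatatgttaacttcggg
Antp at chr3R:6912499-6912599: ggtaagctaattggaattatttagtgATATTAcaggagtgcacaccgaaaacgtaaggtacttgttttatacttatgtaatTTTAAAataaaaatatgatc
Ubx at chr3R:16718064-16718164: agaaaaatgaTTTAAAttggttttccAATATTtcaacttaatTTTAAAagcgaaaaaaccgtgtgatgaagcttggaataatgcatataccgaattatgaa
abd-A at chr3R:16834793-16834893: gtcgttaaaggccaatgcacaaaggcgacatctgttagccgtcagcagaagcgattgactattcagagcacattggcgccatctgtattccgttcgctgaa
Abd-B at chr3R:16958254-16958354: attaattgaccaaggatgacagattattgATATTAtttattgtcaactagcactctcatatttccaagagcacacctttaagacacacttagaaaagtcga
Antp at chr3R:6914485-6914585: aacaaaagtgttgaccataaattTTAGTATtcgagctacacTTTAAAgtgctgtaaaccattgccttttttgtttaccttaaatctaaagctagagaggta
Antp at chr3R:6936267-6936367: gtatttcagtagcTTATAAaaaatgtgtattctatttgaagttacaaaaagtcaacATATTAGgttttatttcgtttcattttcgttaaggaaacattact
hth at chr3R:10537319-10537419: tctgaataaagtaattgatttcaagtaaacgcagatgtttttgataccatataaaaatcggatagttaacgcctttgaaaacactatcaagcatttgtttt

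The marked letters were AT-rich in each case, as were most of the windows. The median GC content was 30.7% at the 37 member summits and 31.7% at the 6383 other optimal summits, and the lowest member value, 12.9%, was at the Antp summit at 6912749. At least 1 of the 10 hexamers lay within 50 bp of 28 of the 37 member summits (75.7%) and of 65.3% of the other summits. In windows 500 bp to the left the shares were 32.4% for the member summits and 29.5% for the others. The windows of abd-A and of the second hth summit printed above hold none of the 10.

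AATATT was found at 13 member summits (35.1%, interval 20.2 to 52.5) and at 18.3% of the others, the widest gap among the 10 and the single case in which the members' interval did not hold the others' share. ATATTA, whose reverse complement contains TAAT, was found at 11 member summits (29.7%) and at 21.3% of the others. TTTAAA was found at 8 member summits (21.6%) and 21.3% of the others, TTATAA at 6 (16.2%) and 11.3%, and TATTAA at 6 (16.2%) and 20.8%. CTAATA was found at 4 member summits (10.8%) and 8.12% of the others, and ATCTTA at 4 (10.8%) and 9.26%. ATACTA was found at 3 member summits (8.11%) and 7.82% of the others, and TACTAA at 3 (8.11%) and 7.79%. TAGCTA was at none of the member summits and at 3.37% of the others. The hexamers were picked on the other summits, so their excess over flanks there is a result of that choice.

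Short consensus words of factors that act at Hox genes were mostly at member summits about as often as at other summits. The homeodomain core TAAT lay within 50 bp of 31 of 37 member summits (83.8%, interval 68.0 to 93.8) and 78.9% of the others. TGATNNAT, a joint site of Exd and Hox proteins, was at 4 member summits (10.8%, interval 3.03 to 25.4) and 8.73% of the others. TGACAG, the Hth and Meis site, was at 2 (5.41%, interval 0.661 to 18.2) and 3.27%. GAGAG, bound by GAGA factor at Polycomb response elements, was at 4 (10.8%) and 9.16%.

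Words of insulator and other factors, among them a word of the Hox protein Abd-B, were at lower shares of the member summits, on small counts. CGATA, the core bound by BEAF-32, was at 2 member summits (5.41%, interval 0.661 to 18.2) and 16.4% of the others. The longer TATCGATA, shared by DREF and BEAF-32, was at none of 37 (interval up to 9.49) and 1.97% of the others. TTTATG, a Caudal and Abd-B site, was at 2 (5.41%) and 13.2%, and AGATAA, bound by pannier and serpent, at 1 (2.70%, interval 0.0684 to 14.2) and 7.52%. All words were searched on both strands, and for each of the 8 the members' interval held the share of the others. Over all 6420 optimal summits, 16.4% held CGATA and 78.9% held TAAT. TATCGATA contains CGATA. In windows 500 bp to the left of the summits the order was the other way for a pair of these words: TTTATG was in 11 member windows (29.7%) and 10.3% of the windows of all optimal summits, and CGATA in 6 (16.2%) and 11.5%.

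By place, 31 of the 37 member summits (83.8%, interval 68.0 to 93.8) lay in introns, and 34.8% of all other optimal summits did. Only the Dfd summit was within 500 bp of any gene's start, 1 of 37 (2.70%, interval 0.0684 to 14.2), against 47.0% of the others. A pair of summits lay in a 3′ untranslated region, both in hth, 2 lay in exons of noncoding genes, and 1, in the Scr window, was intergenic. Genes of at least 20 kb as a class have more intron and fewer promoter summits: in the windows of other protein-coding genes of this length, 58.9% of 2541 summits were in introns (interval 56.9 to 60.8) and 32.3% were at starts (interval 30.5 to 34.1). The member intervals did not overlap these either, on the side of more introns and fewer starts. They take summits as independent, and 13 of the 37 were in hth and 9 in Antp. Taken alone, introns held 76.9% of those in hth (interval 46.19 to 94.96) and 88.9% in Antp (interval 51.75 to 99.72). Both intervals hold 58.9%. Starts held 0% in each, and the interval held 32.3% in Antp (up to 33.6) but not in hth (up to 24.7). Length was matched by the 20 kb cutoff only, and lab and Dfd are shorter than that. Among the strongest regions of each replicate, the member windows held 83.6 ± 1.87% in introns and 4.54 ± 1.38% at starts, against 35.0 ± 1.75% and 47.2 ± 1.93% over all strongest regions (mean ± SD, n = 3 replicates).

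**Figure D1:**
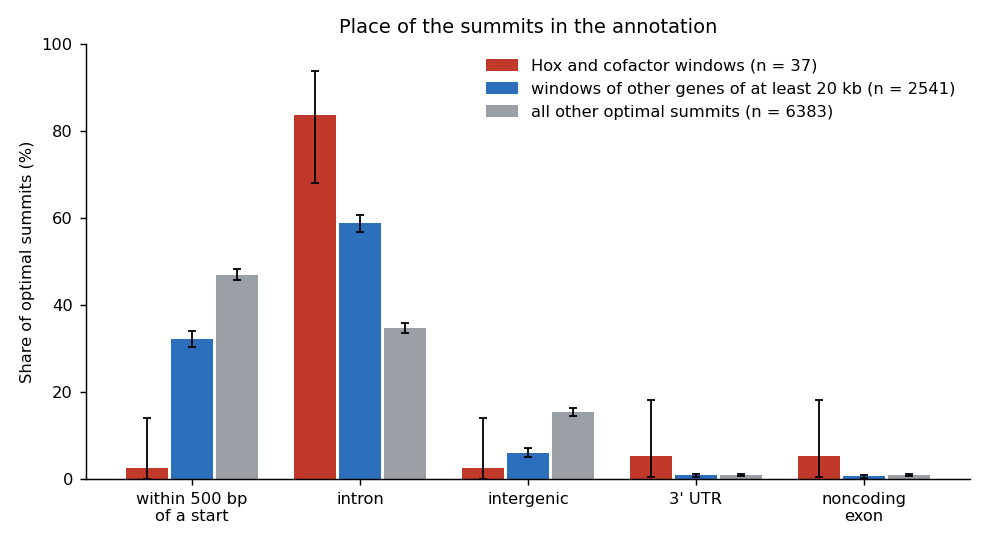
Share of optimal summits (%) by annotation class for the 37 summits in the Hox and cofactor windows (red), 2541 summits in the windows of other protein-coding genes of at least 20 kb (blue) and all 6383 other optimal summits (grey). Bars are shares and lines exact 95% intervals; the red bar stands above the other bars for introns, at 83.8%, and below them at starts, at 2.70%.

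The signals were of middling size. Member signals ran from 199 to 779 with a median of 303, and those of the other optimal summits from 186 to 12375 with a median of 319. Of the 37, 17 were among the 3210 strongest of the optimal set (45.9%), which hold 50% of that set. The strongest were in Antp, at rank 723 of 6420, Abd-B, at rank 733, and hth, at rank 1055.

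**Figure D2:**
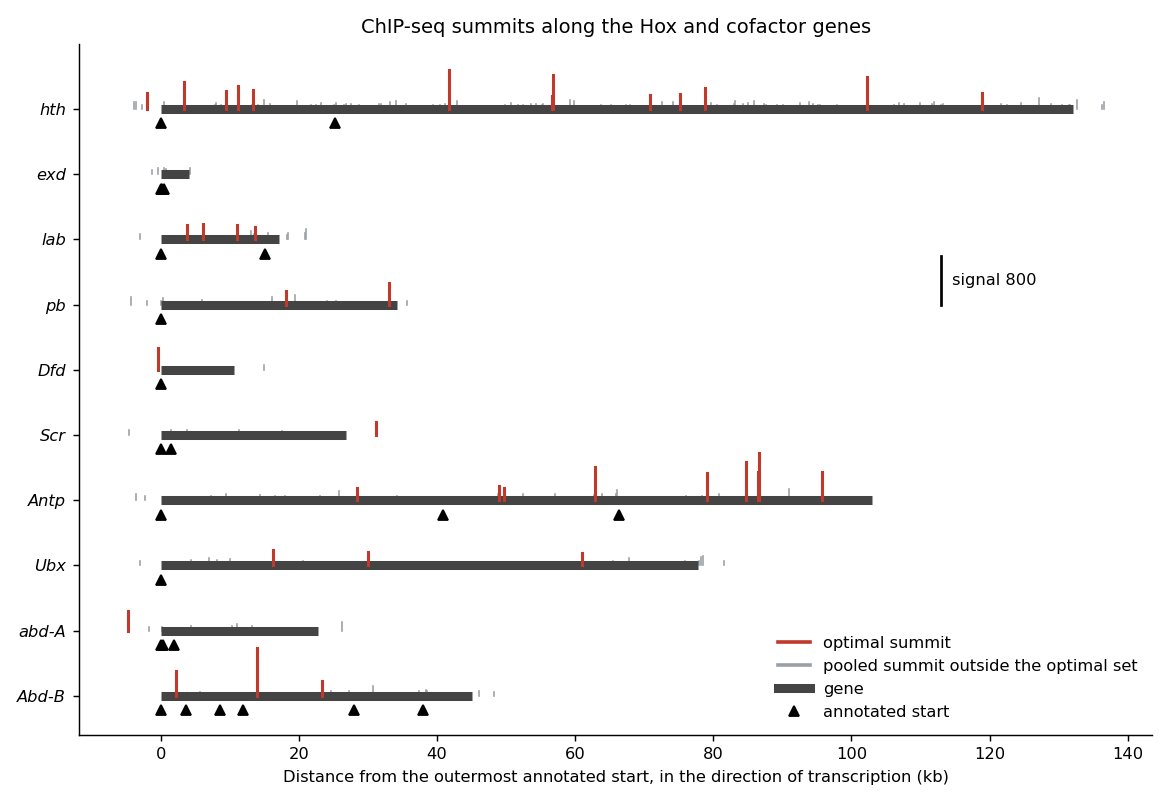
Summits along each gene, drawn by distance (kb) from the outermost annotated start in the direction of transcription, for the 10 genes from hth at the top to Abd-B at the bottom. Bars above each gene stand for signal, in red for the 37 optimal summits and in grey for pooled summits outside the optimal set; triangles are annotated starts, and 1 red bar, at Dfd, stands within 500 bp of one.

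hth, which encodes the cofactor that brings Exd into the nucleus, held 13 of the 37 summits, the most of any member. It is a 132 kb gene on the reverse strand of 3R (10507561 to 10639568) with 5 transcripts from 2 starts. The strongest regions of replicates 1, 2 and 3 gave 12, 15 and 15 summits in its window. The optimal summits came to 9.15 per 100 kb of window, above the density of 79.4% of the other 1006 protein-coding genes of at least 20 kb, whose median was 3.56. Protein-coding genes with at least as many summits numbered 13 besides hth.

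The strongest hth summit, at 10597781 with signal 644, lay in a 9.19 kb intron, 16.5 kb downstream of the inner start, and ranked 1111, 947 and 1163 in replicates 1, 2 and 3. The next in strength, at 10582757 with signal 553, lay in a 3′ untranslated region of a shorter transcript and inside the 23.7 kb intron 6 of the canonical one. Its ranks were 3181, 819 and 1626, so replicate 1 placed it lower than the others did. A weaker summit stood 209 bp from it, at 10582966 with signal 222, and in replicate 1 both fell on the same region. Their spacing is at the lower end of what the lists hold, where the smallest gap between summits was 199 bp.

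Near the outer hth start, 4 summits lay 3.35, 9.39, 11.1 and 13.4 kb downstream, all in the 24.8 kb intron 1 of the transcript that begins there. Their signals were 441, 303, 372 and 314. A further summit, at 10641505 with signal 271, was 1937 bp upstream of the gene in an exon of a noncoding gene. Toward the 3′ end were summits at 10568728 with signal 233, 10564464 with 251, 10560799 with 344, 10537369 with 523 and 10520694 with 265, all in introns. Among these, 10537369 ranked 2096, 1398 and 1470 in the replicates, close together, while 10568728 ranked 10427 in replicate 1 against 3366 and 4869 in replicates 2 and 3. That was the lowest replicate rank of all 37.

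In the whole pooled list, which holds the optimal summits and by its label includes background, hth stood further apart from other genes. The pooled list placed 99 summits in its window, or 69.7 per 100 kb, above the value of 99.1% of the other protein-coding genes of at least 20 kb (median 22.1). The full lists of replicates 1 and 3 held 55 and 88 summits there, and that of replicate 2 held more than either. Of the 85 pooled summits outside the optimal set, 68 were in introns and 33 overlapped all 3 replicate lists. Some were close neighbours on the same replicate regions and are not separate cases. Those at 10614234 and 10614441, for example, both fell on regions ranked 20482, 8976 and 8190 in replicates 1, 2 and 3. The strongest of the 85, at 10512487 with signal 185, was in an intron at pooled rank 6481 and was found in all 3 replicates.

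The 3 protein-coding genes nearest to hth in number of optimal summits each had 13 as well. They were Svil, in a 132 kb window, RapGAP1, in 91.2 kb, and pnt, in 65.9 kb. Svil encodes a protein of the supervillin family, RapGAP1 a GTPase-activating protein for Rap1 and pnt an ETS transcription factor. hth had no optimal summit at a start, and all 3 of these genes did. The strongest signal was 644 in hth, against 2561 in Svil, 1695 in RapGAP1 and 809 in pnt.

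**Figure D3:**
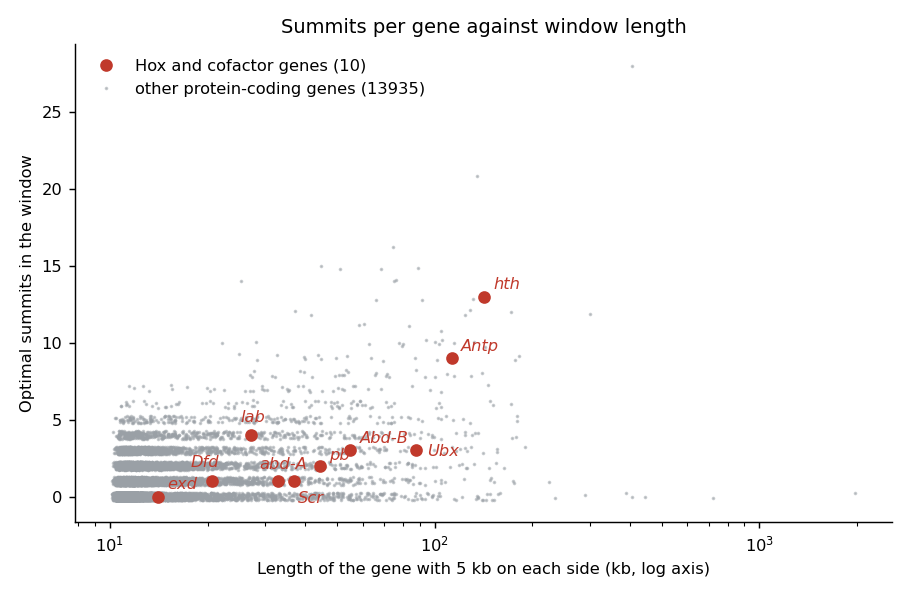
Number of optimal summits in each protein-coding gene's window against the window's length (kb, log axis), with the 10 Hox and cofactor genes in red and the others in grey, spread a little up and down for visibility. hth has 13 summits and Antp 9, the other Hox genes have 1 to 4, and exd has none.

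exd, the partner of Hox proteins on joint sites, had no optimal summit. It is a 4.04 kb gene on X (15992468 to 15996509) with 3 starts, and the nearest optimal summit was 82405 bp upstream, with signal 212. The strongest regions of the 3 replicates also placed none in its window. The pooled list placed 5 there, of which 4 were within 500 bp of a start and 3 overlapped all 3 replicate lists. The strongest, at 15996708 with signal 111 and rank 11988, lay beyond the 3′ end, near the start of a neighbouring gene, and overlapped 2 replicate lists. One at 15992898, with signal 106, was 38 bp from the third exd start.

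The 5 Hox genes of the Antennapedia complex are given in their order along the chromosome. labial (lab), which patterns the head and the midgut, had 4 optimal summits in a 27.2 kb window, or 14.7 per 100 kb, the highest density of the 10 members. lab is shorter than 20 kb, so its density was not ranked among genes of at least that length. Protein-coding genes with at least as many summits numbered 896 besides lab. All 4 lab summits were in the 14.1 kb intron 1 of its canonical transcript, at 6674735, 6672473, 6667475 and 6664870. Their signals, 232, 247, 241 and 204, all ranked below 3210 in the optimal set. The replicates' strongest regions gave 4, 3 and 3 summits.

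The lab summits differed in how they held across replicates. That at 6667475 ranked 5420, 5282 and 3723, and that at 6672473 ranked 4425, 4658 and 4890, so both were among the strongest 6420 in all 3 replicates. The summit at 6674735 ranked 3752, 4626 and 6842 and was among them in replicates 1 and 2. The summit at 6664870 ranked 6714, 7239 and 4085 and was among them in replicate 3 alone. The strongest weaker summit of the window, at 6657499 with signal 173, lay past the 3′ end at another gene's start.

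proboscipedia (pb), which acts in the mouthparts, had 2 optimal summits in a 34.3 kb gene. That at 6709048, with signal 359, lay in the short intron 8 (0.960 kb) near the 3′ end, 33.0 kb from the pb start. It ranked 2475, 2368 and 3981 in the replicates. The other, at 6723927 with signal 220 in the 15.3 kb intron 3, ranked 4235, 4257 and 8264 and so fell outside the strongest 6420 of replicate 3. Of the weaker summits in the pb window the strongest was at 6722677 with signal 165, in an intron.

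Deformed (Dfd), which specifies the maxillary and mandibular segments, was the only member with an optimal summit at a start. The summit lay 364 bp upstream of its single start, at 6791472, with signal 365 and pooled rank 2661. It ranked 3457, 2272 and 2600, within the strongest regions of each replicate, and the printed window has a GC content of 22.8%. The remaining pooled summit of the window, at 6806851 with signal 86.1, was intergenic and overlapped 2 replicate lists.

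Sex combs reduced (Scr), which acts in the labial segment and first thoracic segment, had 1 optimal summit, beyond its 3′ end. It was intergenic, at 6818761, 29.7 kb from the nearest Scr start, with signal 205. It ranked 5831, 6500 and 4348, and so was outside the strongest 6420 regions of replicate 2. The strongest weaker summit was at a start: it lay 35 bp upstream of the inner Scr start, at 6848540 with signal 89.6, and overlapped 2 replicate lists.

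Antennapedia (Antp), which specifies the thorax, had 9 optimal summits in a 103 kb gene (6896253 to 6999228, reverse strand) with 12 transcripts from 3 starts. The replicates' strongest regions gave 11, 7 and 8 summits. The density of 7.97 per 100 kb was above that of 754 of the 1006 other genes of at least 20 kb. The median of the 9 signals was 466, and 6 of them were among the 3210 strongest optimal summits.

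The 6 stronger Antp summits lay within 29.4 kb of the innermost start, from which 6 transcripts begin, and none was within 500 bp of it. In the 21.0 kb intron 1 of the canonical transcript were summits 12.7, 18.3, 20.1 and 20.3 kb downstream of that start. That at 6912549 had the highest signal of all members, 779, and ranked 744, 763 and 783, close together in the 3 replicates. The one at 6912749, 200 bp away, had signal 466 and ranked 1835, 1935 and 2122. At 6914535 the signal was 632 with ranks 1820, 1053 and 964, and at 6920157 it was 443 with ranks 1939, 1723 and 2275. The same 4 lie on regions of 110 to 227 bp, shorter than the 440 bp of most member regions.

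A further strong Antp summit, at 6936317 with signal 544, was 3477 bp upstream of the innermost start in the 60.1 kb intron 2 of a longer transcript. It ranked 1755, 1371 and 1262. The summit at 6903466, with signal 469, lay in an exon of a noncoding gene inside intron 5, 29.4 kb from that start, and ranked 2942, 1645 and 1503. The 3 others, at 6949488, 6950244 and 6970745 with signals 199, 240 and 205, were in introns on either side of the middle start, which Antp shares with CG46458. Of these, only 6950244 was among the strongest regions of all 3 replicates, and the other 2 were so in replicate 1 alone. The strongest weaker summit of the window, at 6908251 with signal 177, was in a 3′ untranslated region and overlapped all 3 lists.

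The 3 Hox genes of the bithorax complex follow. Ultrabithorax (Ubx), which specifies the third thoracic and first abdominal segments, had 3 in a 77.8 kb gene, or 3.42 per 100 kb, near the median of genes of at least 20 kb (3.56). All were in introns, 16.3, 30.0 and 61.0 kb downstream of its single start, with signals 257, 220 and 208. Only that at 16718114 was among the strongest regions of all 3 replicates, with ranks 4011, 4470 and 4540. That at 16704442 ranked 7028, 6772 and 3506, and that at 16673415 ranked 7928, 5299 and 5772. Ubx was also the only member with no pooled summit within 500 bp of a start, and its strongest weaker summit, at 16655943 with signal 149, lay past the 3′ end.

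abdominal-A (abd-A), for the abdominal segments, had 1 optimal summit, outside the gene and 4794 bp upstream of its outermost start. It lay at 16834843 in an intron of MSAmiP and lncRNA:iab8, whose transcription units run through this stretch, and had signal 323. The replicate ranks were 2218, 3736 and 4286. Its window had the highest GC content of the 37, 49.5%. The strongest weaker summit, at 16803787 with signal 135, was intergenic and overlapped 2 replicate lists.

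Abdominal-B (Abd-B), for the posterior abdomen and genitalia, had 3 optimal summits in a 45.0 kb gene with 10 transcripts from 6 starts. All lay in the 28.5 kb intron 1 of a transcript from the outermost start, an intron that spans several of the inner starts. The summit at 16958304, with signal 773, was 1977 bp downstream of one of these starts and ranked 1323, 661 and 669. At 16970040 the signal was 397 with ranks 4974, 1900 and 2344, and at 16948935 it was 234 with ranks 4529, 4143 and 6283. All 3 were among the strongest regions of every replicate, and replicate 1 ranked the stronger 2 below where replicates 2 and 3 did. The strongest weaker summit, at 16941543 with signal 150, was in an intron and overlapped all 3 replicate lists.

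As clusters, both complexes carried optimal summits at a somewhat higher density than chromosome arm 3R. The Antennapedia complex, 348 kb from the window of lab to that of Antp (6656427 to 7004228), held 24, or 6.90 per 100 kb, and the bithorax complex, 326 kb from Ubx to Abd-B (16651623 to 16977236), held 20, or 6.14 per 100 kb. Arm 3R held 4.69 and the 6 chromosomes 4.80 per 100 kb. No interval was computed for these densities, and their difference was not tested. By replicate the Antennapedia complex held 28, 20 and 23 of the strongest regions, and the bithorax complex 19 in each. The pooled densities were 25.6 and 26.1 per 100 kb, against 20.6 over 3R. The windows of the 8 Hox genes alone came to 5.75 per 100 kb, and those of all 10 members to 6.45.

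Within the complexes, summits lay both in the windows of the Hox genes and between them. In the Antennapedia complex 17 of 24 were in the windows (70.8%, interval 48.9 to 87.4), which cover 69.5% of its length, so the densities inside and outside were 7.03 and 6.61 per 100 kb. In the bithorax complex 7 of 20 were in the windows (35.0%, interval 15.4 to 59.2), which cover 53.9% of its length, at 3.98 per 100 kb inside and 8.67 outside. The intervals hold the covered share in both complexes, and their difference was not tested. Of the 13 bithorax summits between the windows, 6 lay between Ubx and abd-A and 7 between abd-A and Abd-B. The strongest of either complex was 1 of these, an intergenic summit between Ubx and abd-A at 16798888, with signal 1352 and pooled rank 220. It ranked 86, 374 and 308 in the replicates. All 7 between abd-A and Abd-B were in introns of lncRNA:iab8, with signals from 192 to 433, and 3 of the 6 between Ubx and abd-A were in lncRNA:bxd, with signals of 307, 368 and 390.

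**Figure D4:**
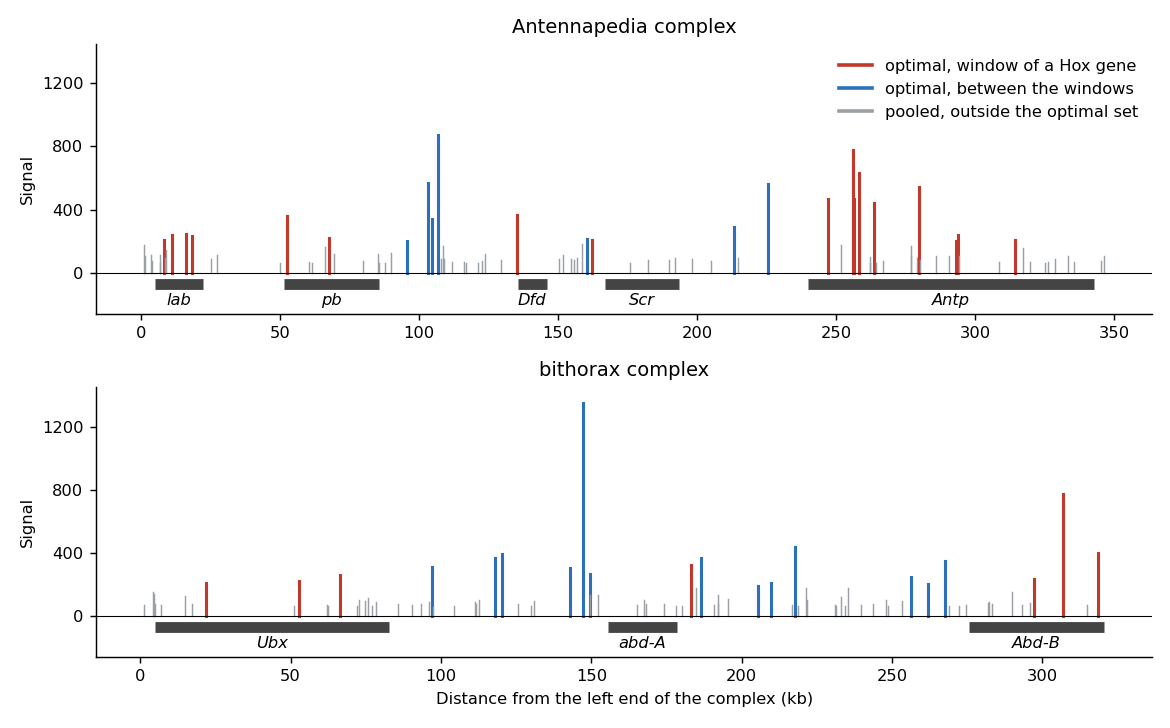
Signal of the summits along the Antennapedia complex (above) and the bithorax complex (below), by distance (kb) from the left end of each. Optimal summits in the windows of Hox genes are red, those between the windows blue, and pooled summits outside the optimal set grey. The tallest red bars are in Antp (779) and Abd-B (773), and the tallest of all, at 1352, is blue and stands between Ubx and abd-A.

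Among the 7 Antennapedia complex summits between the windows, the 2 strongest were at the starts of genes other than the 8 Hox genes. Of 5 other genes of the complex, 2 had an optimal summit at a start: Ama, an immunoglobulin-domain protein, with signal 871, and bcd, the maternal head morphogen, with 566. zen, zen2 and ftz had none there. None of the 6 listed noncoding genes of the complexes had an optimal summit at a start. Of all genes that are not protein-coding, 7.56% had one. Noncoding genes outside the list did have one in each complex. In the Antennapedia complex the summit at 6816868, with signal 213, lay within 500 bp of a start of lncRNA:CR42651. In the bithorax complex that at 16801137, with signal 263, lay within 500 bp of a start of lncRNA:TS16. Of the 6 listed genes, 4 had an optimal summit in the gene with 5 kb on each side, against 41.5% of genes that are not protein-coding. Of these 4, mir-iab-4 and mir-iab-8 have the same coordinates and share 1 summit, which also lies in lncRNA:iab8, so they are not separate cases. Over the other TALE homeodomain genes (achi, vis, ara, caup and mirr), 0 of 5 had an optimal summit at a start, against 24.9% of protein-coding genes, and 5 of 5 had one in the window, against 56.5%. achi and vis are neighbours and share their strongest summit.

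Genes that act beside or below the Hox genes gave these counts at their starts. Among 15 genes that act with Hox genes in segment identity, 1 had an optimal summit at a start, cnc, which acts with Dfd in the mandibular segment, with signal 388. Among 13 direct or genetic Hox targets that matched the annotation, 5 did: Poxm with 1146, fkh, which acts in the salivary gland, with 483, CrebA with 334, and Poxn and Dll. Both counts are to be read against the 24.9% of all protein-coding genes with such a summit.

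With the pooled list, which by its label includes background, more of the members had a summit at a start. A gene with several starts has more chances of one. The number of starts was not matched, and no share over all annotated starts was computed. In the pooled list 9 of the 10 members had a summit within 500 bp of a start, where 50.5% of protein-coding genes had one, and 13 of the 24 annotated member starts did. Apart from that of Dfd, the signal of the summit nearest to such a start ran from 62.5, at lab, to 168, at the innermost Antp start. By construction all of these lie below the lowest optimal signal of 186. For hth, the inner start had one 42 bp away with signal 102 and the outer start one 488 bp away with 112. Over all 167 pooled summits of the windows that overlap no optimal region, 22 were at a start of any gene (13.2%, interval 8.44 to 19.3) and 106 were in introns (63.5%, interval 55.7 to 70.8). Over all such pooled summits the shares were 24.5% and 43.6%. Of the 167, 68 overlapped all 3 replicate lists (40.7%), against 37.1% of all.

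The member summits held across replicates as often as the rest. Of the 37 optimal regions, 28 (75.7%, interval 58.8 to 88.2) met a region among the 6420 strongest in each of the 3 replicates, as did 76.2% of the whole optimal set, while 5 met one in 2 replicates and 4 in 1. All 37 were overlapped by some region of every replicate's full list. Median ranks were 3752, 3646 and 3981 in replicates 1, 2 and 3. Replicate summits lay a median of 12 bp from the pooled summit and at most 140 bp, against 13 bp over all optimal regions. Since the optimal set was made from these replicates, this is a description of their spread and no independent check.

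**Figure D5:**
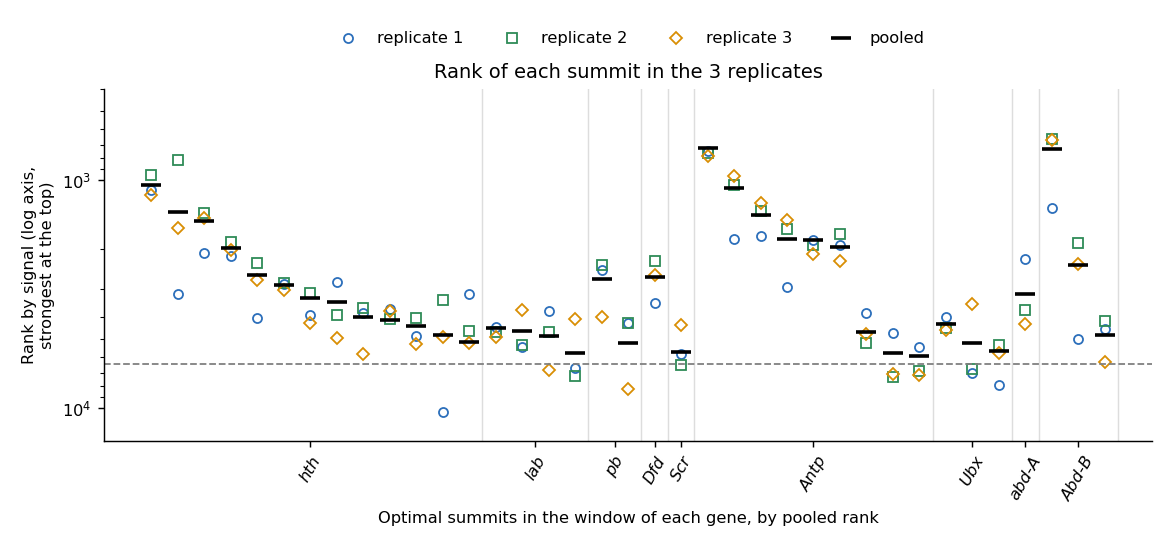
Rank by signal (log axis, strongest at the top) of each of the 37 summits in replicates 1, 2 and 3 (open symbols) and in the pooled list (black bars), grouped by gene. The dashed line is rank 6420, and 28 of the 37 have all 3 replicates above it; the Antp summit with pooled rank 723 has ranks of 744 to 783, and 1 hth summit falls to 10427 in replicate 1.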

How the data were processed

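The study deposited lists of ChIP-seq regions for 3 biological replicates of CG4424-GFP embryos, and for the pooled reads, on dm6. In these lists, per the labels and the notes deposited with the samples, the authors gave each region a signal value (column 7) and a summit offset, called against a control, and thresholded the optimal set on the irreproducible discovery rate. Aligner, caller and software versions, like the scale of the signal, are not given in the sources.

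Summits were placed on the Ensembl gene annotation of the same assembly, and sequence was read from the matching RefSeq assembly. A member window was the gene with 5 kb on each side. A summit within 500 bp of an annotated start of any gene was counted as promoter. Any other summit in an exon took the exon's kind (untranslated, coding or noncoding), and the rest were intronic or intergenic. Replicate spread came from the 6420 strongest regions of each replicate, and overlap was at least 1 bp. No test was run, since there is 1 group and no contrast; counts are set beside the same value over all features, with exact 95% intervals.

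The members, gene lists and consensus words were chosen with earlier results of these data known. The hexamers, the comparison with other genes of at least 20 kb in placement, and the counts of pooled summits at starts were added after seeing the data. Named were all 10 members, each of their optimal summits, the strongest weaker pooled summit of each, up to 3 genes of each of the 5 other lists by strongest summit at a start, and the 3 genes nearest to hth in summit count. In 1 case the text names 2 more genes than this rule gives, Poxn and Dll. Named outside the lists are lncRNA:CR42651 and lncRNA:TS16, for the optimal summits at their starts. The listed names iab-4, bxd and cut had no match, while lncRNA:bxd and ct did. The scripts, in Python 3.11.15 with numpy 2.4.6, scipy 1.17.1 and matplotlib 3.10.9, were tested on simulated regions, with overlaps compared with bedtools. Alternatives were the flank, the promoter distance, the stronger part of the optimal set, leaving out a summit close to a stronger one, the overlap rule and leaving out each replicate.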

Additional observations from a re-analysis of the deposited data

How the results depend on the processing

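Of 56 alternative values, 34 stayed within 1.5 times the count or within the SD of the replicates, and 22 did not. The replicate SD of the bithorax complex density was 0, so any change in that density counted as outside. Settings that keep fewer regions can only lower a density. The tally is thus partly set by the rule and is no measure of robustness. Flanks of 0, 2 and 10 kb gave 33, 35 and 46 member summits, and 6, 7 and 9 members with a summit in the window in place of 9 with 5 kb. Restricting the optimal set to its stronger 3210 regions gave 17 member summits in place of 37, 6 members with a summit in the window, a promoter share of 5.88%, and densities of 3.45 per 100 kb in the Antennapedia complex and 2.76 in the bithorax complex, as fewer regions were counted. A promoter distance of 250 bp left 0 members with an optimal summit at a start and a promoter share of 0%. Flanks of 0 kb gave a promoter share of 0% and an intron share of 90.9%, flanks of 2 kb an intron share of 85.7%, and flanks of 10 kb shares of 8.70% and 71.7%. Without the gene hth, an alternative added after seeing the data, 24 summits remained, with shares of 4.17% at promoters and 87.5% in introns. With the 3210 strongest regions of each replicate, 13 member regions were overlapped in all 3 replicates in place of 28.

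Leaving out each replicate in turn, that is, asking for overlap by the strongest regions of both others, left 29 to 30 member summits, 8 to 9 members with a summit in the window and 1 with a summit at a start. The promoter share then ran from 3.33% to 3.45% and the intron share from 79.3% to 83.3%. The Antennapedia complex density ran from 4.89 to 5.46 and the bithorax complex density from 4.91 to 5.22 per 100 kb. Over the genome the same filter kept 5348, 5173 and 5263 optimal regions without replicates 1, 2 and 3, so it lowers the genome's density too. The density of the whole chromosome arm under this filter was not computed. The filtered densities are therefore not to be set beside its unfiltered density. In every alternative run, more than 70% of the member summits were in introns and fewer than 10% at promoters. No paired analysis was possible because there is 1 group. With 37 summits, shares carry wide intervals, for example 68.0 to 93.8 for the intron share of 83.8%. With 10 genes, the counts of members carry wide intervals too.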
